A study of Homo sapiens with 4 samples.

Results

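MYC and 33 genes that act in ribosome production or are textbook companions of MYC were followed in QGP-1 cells given medium conditioned by pancreatic stellate cells (PSC medium). They were chosen by gene symbol, and 33 of the 34 were found, with 42 of the 28264 probes on the array and 33 of the 19090 genes tested. GNL3 had no probe under its symbol and was not analysed here. QGP-1 is an established human pancreatic neuroendocrine tumour cell line, and stellate cells are the matrix-forming mesenchymal cells of the pancreas. Each of the 2 groups, mock and PSC medium, had 2 arrays of 1 colour (Cy5). Cells were grown with 10% serum and then held for 24 h in RPMI-1640 with 0.1% serum, with PSC medium in 1 group and without it in the other, so low serum is common to both. The source of the stellate cells, the make-up of the mock medium and the origin of the arrays from separate cultures are unstated in the labels, so p-values measure only the spread between these arrays. The question was how expression of the set differed between the groups.

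MYC is a transcription factor that, paired with MAX, binds the DNA element called the E-box and raises the output of genes for growth. Ribosomes are made in the nucleolus, where RNA polymerase I copies the rRNA genes and small nucleolar ribonucleoproteins (snoRNPs) guide chemical marks on the rRNA. Separate sets of assembly factors then build the small and the large subunit. Genes of these steps are among the best known MYC targets, together with those for polyamines, small cations that growing cells need.

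The promoters were searched for the E-box with the letters CACGTG, which reads the same on both strands and overlaps no other motif searched. The windows were 300 bases of RefSeq (GRCh38.p14), from 250 before to 50 after an annotated gene start. A window was present for 26 of the 33 genes, and 14 of these 26 (53.8%) held an E-box in at least 1 window. The same was true of 10.8% of the 15159 tested genes with a window, and 7.26% of all 35116 windows held the motif. In 13 of the 14 genes an E-box began between 60 bases before and 45 bases after the start. SRM, with its E-box at -199, was the exception. The share was 52.6% for MYC targets outside the nucleolus, 35.3% for the polymerase III machinery and 34.8% for further small subunit factors. It was 26.7% for the MYC network, 24.4% for further large subunit factors, 20.0% for snoRNP assembly and 16.7% for rRNA trimming nucleases. Cytosolic ribosomal proteins, with 6.9%, and the polymerase I machinery, with 5.9%, lay under the share of all tested genes. Since the genes were picked as known companions of MYC, the share of 53.8% describes the set, and a match is not a measured binding site. Below are 90 bases around the start (60 before, 30 after) for 6 of the 14 genes, chosen to cover several roles and both signs of difference, with the E-box in capitals. The starts used for ODC1 and PES1 are annotated starts inside the RefSeq gene span, not its outer end.
ODC1: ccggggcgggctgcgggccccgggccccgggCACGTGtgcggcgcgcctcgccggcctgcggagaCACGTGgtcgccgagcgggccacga
PES1: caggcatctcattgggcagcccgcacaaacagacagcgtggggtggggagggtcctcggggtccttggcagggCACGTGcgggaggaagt
NOP14: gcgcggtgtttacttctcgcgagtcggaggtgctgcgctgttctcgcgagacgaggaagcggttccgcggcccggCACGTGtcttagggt
NAT10: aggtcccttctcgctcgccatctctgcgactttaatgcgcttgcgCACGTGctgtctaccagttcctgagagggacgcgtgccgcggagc
RRP9: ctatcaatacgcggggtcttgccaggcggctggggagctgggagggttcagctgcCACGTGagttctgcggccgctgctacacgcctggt
FBL: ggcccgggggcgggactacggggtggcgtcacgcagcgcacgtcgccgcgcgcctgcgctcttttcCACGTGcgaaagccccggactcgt

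The windows lie at chr2:10447983-10448072 on the minus strand for ODC1, chr22:30591881-30591970 on the minus strand for PES1 and chr4:2963377-2963466 on the minus strand for NOP14. Those of the other genes lie at chr11:34105569-34105658 on the plus strand for NAT10, chr3:51941875-51941964 on the minus strand for RRP9 and chr19:39846350-39846439 on the minus strand for FBL. Counted from the start as 1, the E-box of ODC1 began at -29 and again at 6. It began at 14 in PES1, at 16 in NOP14, at -15 in NAT10, at -5 in RRP9 and at 7 in FBL. ODC1 has another window, for a second annotated start, without the motif.

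Arrays are described as normalized log2 intensities, and differences are PSC medium minus mock on that scale. Summed deposited intensity ran from 135782105 to 173359996 per array, lowest on mock array 1, and the number of arrays limits the precision. Before normalization 0 and 30 probes on the mock arrays and 848 and 175 on the PSC medium arrays had an intensity under 1, but no probe standing for a gene of the set had one. Of 13 neuroendocrine markers measured, 10 lay above the median gene level, including SST and CHGA, while SYP, NKX2-2 and the dim RFX6 lay under it. Of the 13 differences 5 were positive and 8 negative, with a median of -0.16. Of 14 stellate cell markers, 2 lay above it, COL1A1 and SPARC. The summed linear level of the stellate cell list was 16154 and 13428 on the mock arrays and 17204 and 19070 on the PSC medium arrays. Most of this sum came from SPARC and COL1A1, and of the 14 differences 7 were positive and 7 negative. In limma, 1 gene of each marker list fell, NKX2-2 (-1.98, adjusted p = 0.0158) and the dim DES (-1.48, adjusted p = 0.0243), and none rose. Of all genes 0.974% fell and 1.17% rose by the same test. NKX2-2, under the median gene level like DES, had 9.74 and 10.07 in mock cells and 8.06 and 7.80 with PSC medium. NKX2-2 was called under 5 of 11 alternative settings and DES under 4 of 11. The difference of DES ran from -2.13 with median centring to -0.81 with 50 added before log2. COL1A1 differed by 0.29 (adjusted p = 0.423) and SPARC by 0.38 (adjusted p = 0.260). The part of carried-over stellate cells in the results was not tested.

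As a set, no gene passed the test and the balance of differences was upward. In limma, with p adjusted over all 19090 genes, 0 of 33 were called higher and 0 lower at 0.05, against 1.17% and 0.974% of all genes. At an unadjusted p under 0.05, 6 of 33 (18.2%) were higher and 0 lower, against 9.84% and 12.7% of all genes. Both PSC medium arrays lay above both mock arrays for 18 of 33 (54.5%) and below for 3 (9.09%), against 24.5% and 29% of all genes. The median difference of the 33 was 0.21 and that of all genes -0.01. It was 0.11 without PSC medium array 1 and 0.13 without mock array 2. The median level of the set was 12.49 and 12.33 on the mock arrays and 12.65 and 12.59 on the PSC medium arrays, so the group medians did not overlap.

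MYC had the largest difference of the set. Its level was 10.83 and 11.29 on the mock arrays and 12.01 and 11.90 on the PSC medium arrays. Both PSC medium arrays were thus higher, and the 2 mock arrays lay further apart than the 2 PSC medium arrays. The deposited intensities of its only probe, before normalization, were 1554 and 2750 in mock cells and 4293 and 3821 with PSC medium. The difference was 0.90 ± 0.20 (SE, n = 2 per group), or 1.87-fold, with a 95% interval from 0.40 to 1.40, and the limma adjusted p was 0.0789. With 1 array left out it ran from 0.67, without mock array 1, to 1.12, without mock array 2. MYC was called higher under 4 of 12 alternative settings, with adjusted p from 0.00104 to 0.347 over the 12.

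**Figure D1:**
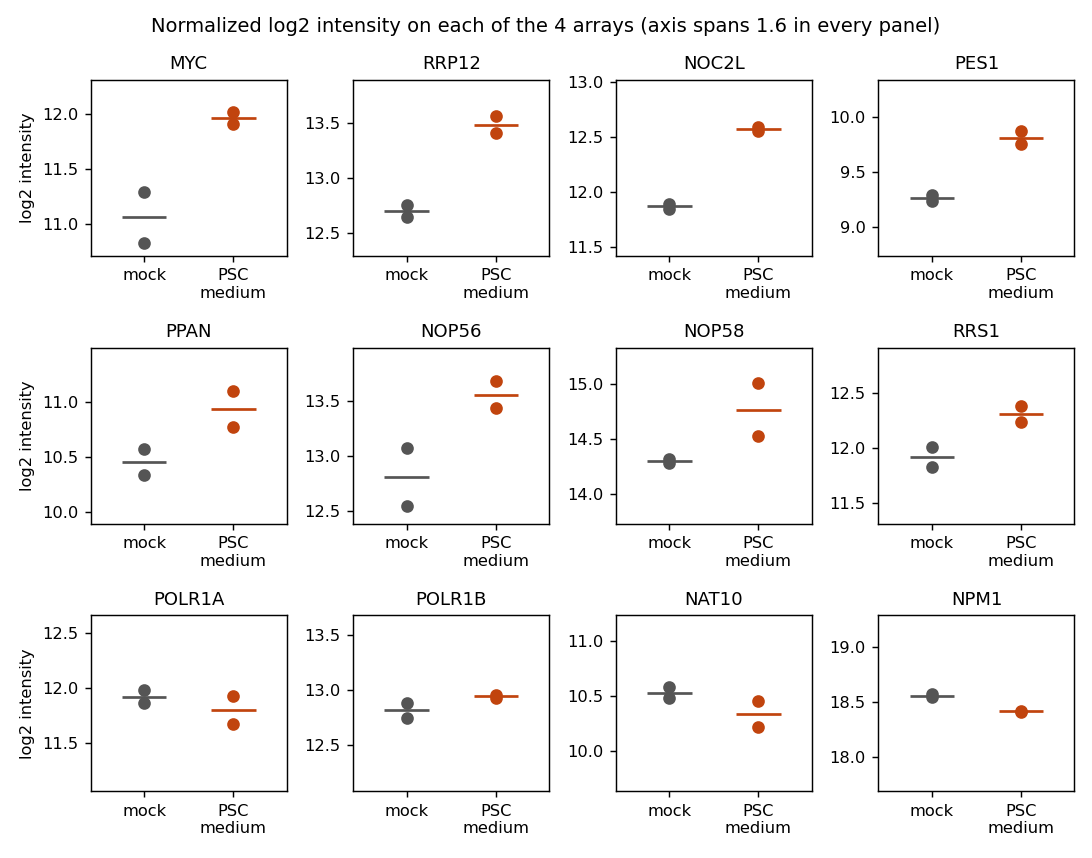
Normalized log2 intensity (vertical axis, spanning 1.6 in every panel) of 12 genes on the 2 mock and 2 PSC medium arrays. Points are arrays and lines are group means, and MYC, RRP12 and NOC2L show the groups clear of each other, while those of POLR1A overlap.

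The polymerase I subunits showed little difference. POLR1A, the largest subunit of the enzyme, had 11.86 and 11.98 in mock cells and 11.93 and 11.67 with PSC medium. The groups overlapped (-0.12 ± 0.17, interval from -0.54 to 0.30, adjusted p = 0.729). POLR1B, the second largest subunit, had 12.88 and 12.74 against 12.95 and 12.93. Its groups did not overlap, but the difference of 0.13 ± 0.16 was smaller than its error (adjusted p = 0.686).

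Among 7 genes of small subunit assembly, 5 differences were positive and 2 negative, with a median of 0.10. RRP12, a HEAT-repeat protein needed in yeast for pre-ribosome export, led them with 12.75 and 12.65 in mock cells and 13.40 and 13.56 with PSC medium. Each PSC medium array stood well above each mock array (0.78 ± 0.16, 1.72-fold, adjusted p = 0.0682). With any 1 array left out its difference stayed between 0.70 and 0.86. BYSL (bystin), a late-acting factor of the small subunit, had 12.28 and 12.30 against 12.65 and 12.49 (0.28 ± 0.16, adjusted p = 0.350). NAT10, which acetylates cytidines in 18S rRNA, had the lowest difference, with 10.48 and 10.58 in mock cells and 10.46 and 10.22 with PSC medium. Its groups were separate by a margin far under the gap between its PSC medium arrays (-0.19 ± 0.17, adjusted p = 0.552). The processome factor NOP14, the U3 snoRNP protein RRP9, WDR43 and UTP20 lay between -0.14 and 0.19. Without PSC medium array 1 the median of the 7 was -0.03.

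Nearly all large subunit factors were higher with PSC medium, though none passed the test. Of 11 genes, 10 (90.9%) had a positive difference, against 48.2% of all genes, and their median was 0.39. Both PSC medium arrays lay above both mock arrays for 10 (90.9%), against 24.5% of all genes. NOC2L, the counterpart of a yeast factor that escorts the early large subunit, had 11.90 and 11.84 in mock cells and 12.55 and 12.59 with PSC medium. The arrays of each group lay close together and the groups far apart (0.70 ± 0.15, 1.63-fold, adjusted p = 0.0742). PES1, which forms a complex with BOP1 and WDR12 in large subunit rRNA processing, had 9.29 and 9.24 against 9.87 and 9.75 (0.54 ± 0.16, adjusted p = 0.120). Its partners did not pass either, at 0.41 ± 0.19 for BOP1 (adjusted p = 0.277) and 0.39 ± 0.20 for WDR12 (adjusted p = 0.324). All 3 genes of the complex had both PSC medium arrays above both mock arrays, as 24.5% of all genes did. Leaving out 1 array, BOP1 ran from 0.20, without mock array 1, to 0.62, and WDR12 from 0.16, without PSC medium array 2, to 0.62, without PSC medium array 1. PES1 and BOP1 lay under the median gene level.

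PPAN, the counterpart of the fly gene peter pan, had 10.33 and 10.57 in mock cells and 10.77 and 11.10 with PSC medium (0.48 ± 0.19, adjusted p = 0.210). It shares sequence with the PPAN-P2RY11 readthrough gene, and the probes were not told apart between them. NOP2, a methyltransferase of large subunit rRNA, RRS1, NOP16, NIP7 and NOC3L had differences from 0.22 to 0.40 with separate groups, and none passed. NOP2 ran from 0.16 to 0.63, NOP16 from 0.067 to 0.46 and NIP7 from 0.080 to 0.49 with 1 array left out. MRTO4, a stalk assembly factor, was the exception, with 9.30 and 8.65 in mock cells and 8.68 and 9.04 with PSC medium. Its mock arrays enclosed both PSC medium arrays (-0.12 ± 0.26, adjusted p = 0.831), and it too lay under the median gene level. With 1 array left out at a time, the median of the 11 ran from 0.29, without mock array 1, to 0.46.

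**Figure D2:**
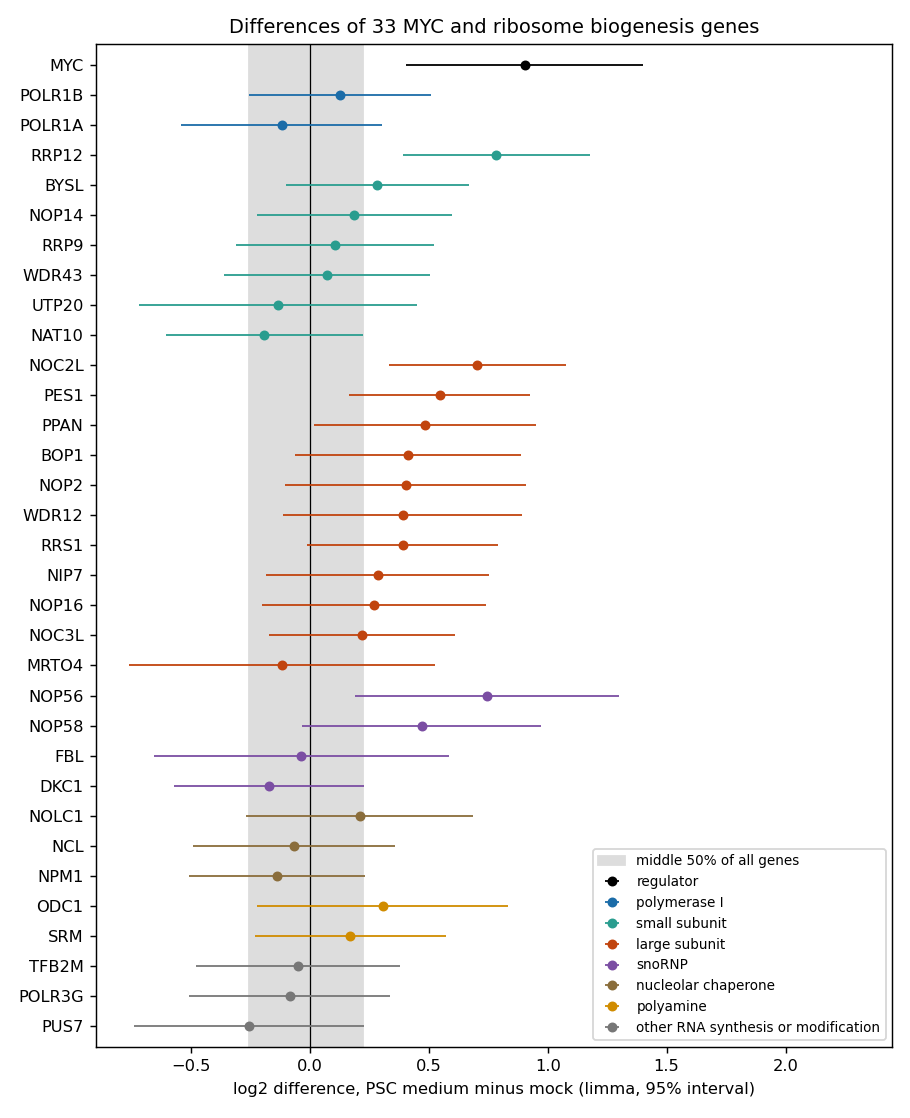
Log2 difference, PSC medium minus mock (horizontal axis), of the 33 genes with the 95% interval of the limma fit, coloured and ordered by step. Grey marks the middle 50% of all genes, and 10 of 11 large subunit genes lie above 0 while the polymerase I subunits lie inside the grey band.

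The genes for proteins of box C/D snoRNPs, which guide methylation of rRNA, had unequal differences, which were not tested against each other. NOP56, a core protein of these particles, had 12.55 and 13.08 in mock cells and 13.69 and 13.43 with PSC medium. The PSC medium arrays were higher, and the mock arrays lay far apart (0.75 ± 0.23, 1.68-fold, adjusted p = 0.134). NOP58, its partner, had 14.31 and 14.28 against 14.53 and 15.00 (0.47 ± 0.21, adjusted p = 0.248). Leaving out 1 array, NOP56 ran from 0.49, without mock array 1, to 1.01, and NOP58 from 0.23, without PSC medium array 2, to 0.70, without PSC medium array 1. FBL (fibrillarin), the methyltransferase of the same particle, had 16.54 and 16.44 against 16.80 and 16.10. Its PSC medium arrays fell on both sides of the mock arrays (-0.04 ± 0.25, adjusted p = 0.951). DKC1 (dyskerin), the pseudouridine synthase of the box H/ACA particles, had 13.97 and 14.07 in mock cells and 13.94 and 13.75 with PSC medium, lower by a narrow margin (-0.17 ± 0.16, adjusted p = 0.581).

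Abundant nucleolar proteins showed no common direction. NPM1 (nucleophosmin), a histone and ribosome chaperone, had 18.57 and 18.54 in mock cells and 18.42 and 18.41 with PSC medium. Arrays of a group agreed closely and the groups were separate, yet the difference was only -0.14 ± 0.15 (adjusted p = 0.635). NPM1 has processed pseudogenes that a probe may not tell apart. NOLC1, a chaperone of snoRNPs, had 13.88 and 13.73 against 14.21 and 13.82 (0.21 ± 0.19, adjusted p = 0.580). NCL (nucleolin), which binds nascent rRNA, overlapped between groups (-0.07 ± 0.17, adjusted p = 0.858).

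The polyamine genes had positive differences that did not pass the test. ODC1, the rate-limiting ornithine decarboxylase, had 16.48 and 16.15 in mock cells and 16.83 and 16.41 with PSC medium, and the groups overlapped (0.30 ± 0.22, adjusted p = 0.456). SRM, spermidine synthase, had 14.42 and 14.26 against 14.43 and 14.59, barely separate (0.17 ± 0.16, adjusted p = 0.595). The 3 genes of other RNA steps overlapped between groups. They were PUS7, a pseudouridine synthase, with 11.30 and 11.67 against 11.34 and 11.10 (-0.26 ± 0.20, adjusted p = 0.495), the polymerase III subunit POLR3G (-0.09) and the mitochondrial transcription factor TFB2M (-0.05). POLR3G had 12.49 and 12.33 in mock cells and 12.20 and 12.44 with PSC medium.

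Genes above are represented by their brightest probe, and 6 of the 9 dimmer probes had a higher difference than the brightest probe of their gene. The gap was widest for ODC1, NOLC1 and NOP16. In a fit over all 28264 probes, 30 of the 42 probes were higher and 12 lower. None of the 42 was called, against 0.386% of all probes called higher and 0.248% lower, and the smallest adjusted p was 0.0874 for RRP12. At an unadjusted p under 0.05, 10 of the 42 probes were higher and 0 lower, against 10% and 11.8% of all probes. The dimmer ODC1 probe had 14.64 and 14.65 in mock cells and 15.67 and 15.30 with PSC medium (0.84 ± 0.18, adjusted p = 0.0974), against 0.30 for the brightest. The dimmer NOLC1 probe had 12.81 and 12.77 against 13.92 and 13.37 (0.85 ± 0.22, adjusted p = 0.126). The dimmer NOP16 probe had 13.30 and 13.12 against 13.77 and 14.12 (0.73 ± 0.19, adjusted p = 0.121). In all 3 the groups were separate, and the transcripts that these probes read were not looked up here.

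**Figure D3:**
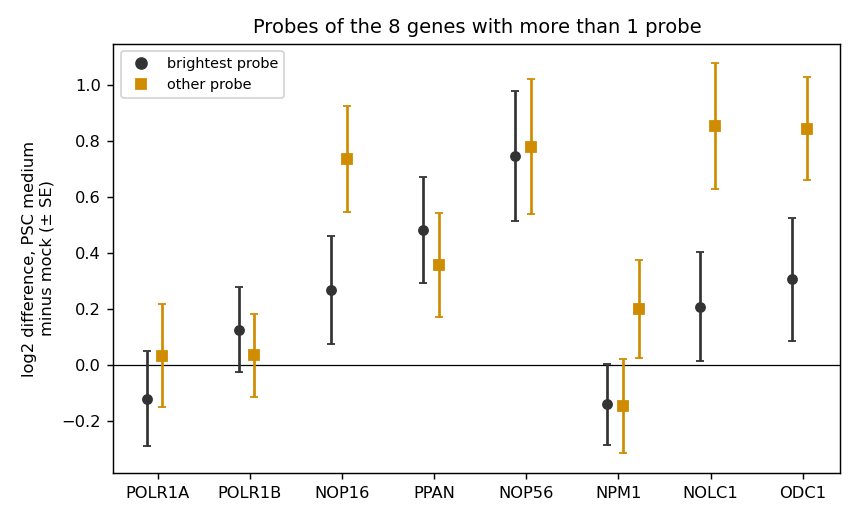
Log2 difference, PSC medium minus mock, with its SE from the fit over all probes, for each probe of the 8 genes with more than 1 probe. Circles are the brightest probe and squares the others, and the squares of NOP16, NOLC1 and ODC1 lie well above their circles while both NOP56 probes lie near 0.75.

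POLR1A had 0.03 ± 0.18 on its dimmer probe, and NPM1 had 0.20 ± 0.18 and -0.15 ± 0.17 on its dimmer probes. Of the 9 dimmer probes of these 8 genes, 7 had the sign of the brightest and 2 the opposite sign. NOP56 agreed between its probes, with 0.78 ± 0.24 for the dimmer one. PPAN had 0.36 ± 0.18 on its other probe. When the probes of a gene were averaged, 10 of 33 genes were higher at an unadjusted p under 0.05, against 10.2% of all genes, and 0 were called after adjustment.

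Other genes of ribosome assembly, in lists made by function but with earlier results of these data known, had mostly positive differences. Of 52 further small subunit factors, 0 passed in either direction, 37 had a positive difference and the median was 0.24. Those of smallest p were RRP7A (1.02 ± 0.19, adjusted p = 0.0566) and PNO1 (0.77 ± 0.18, adjusted p = 0.0866), with UTP4 (0.71 ± 0.17, adjusted p = 0.0866). Of 46 further large subunit factors, 0 passed, 37 were positive and the median was 0.20. The genes of smallest p were ZNF622 (0.64 ± 0.17), TEX10 (0.66 ± 0.19) and RSL1D1 (0.51 ± 0.16), with adjusted p from 0.103 to 0.140. For all genes, 48.2% of differences were positive.

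Of 21 genes of the polymerase I machinery, 0 passed, 13 were positive and the median was 0.06, which ran from 0.0038 without mock array 2 to 0.16 without PSC medium array 2. TAF1C, a subunit of the promoter selectivity factor, had -0.80 ± 0.23 (adjusted p = 0.121), POLR1E, a polymerase I subunit, 0.56 ± 0.17 (adjusted p = 0.127) and TCOF1, the nucleolar protein treacle, 0.46 ± 0.18. Of 13 snoRNP assembly genes, 0 passed and 10 were positive (median 0.14). The median was 0.032 without PSC medium array 1 and 0.26 without mock array 2, and 7 were positive without mock array 1. Smallest in p were the H/ACA protein gene NOP10 (0.57 ± 0.15, adjusted p = 0.109), NUFIP1 (0.48 ± 0.16) and NAF1 (0.69 ± 0.24). NAF1 lay under the median gene level. Of 14 genes for the nucleases that trim rRNA, 1 rose and 0 fell, against 1.17% and 0.974% of all genes. Their median was 0.11, or 0.064 without PSC medium array 1. The gene that rose was EXOSC2, a subunit of the RNA exosome, with 10.81 and 10.85 in mock cells and 11.77 and 12.02 with PSC medium (1.06 ± 0.17, 2.09-fold, adjusted p = 0.0435). When its probes were averaged EXOSC2 differed by 0.33.

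Of 68 cytosolic ribosomal protein genes, 0 passed, and 34 were positive and 34 negative. Their median difference was -0.00254, and relative to all genes it was 0.01, against 0.10 without normalization or with median centring. RPL22 had -0.85 ± 0.16 (adjusted p = 0.0609), RPS4X 0.88 ± 0.17 (adjusted p = 0.0646) and RPL10 1.17 ± 0.38 (adjusted p = 0.152). RPL10 lay under the median gene level. Leaving out 1 array, it ran from 0.70, without mock array 2, to 1.65, without mock array 1. Many of these genes have near-identical pseudogenes, so single values are uncertain. The polymerase III machinery makes 5S rRNA and tRNA. Of its 21 genes, 1 rose and 0 fell, against 1.17% and 0.974% of all genes. Their median was 0.20, or 0.12 without PSC medium array 1. The gene that rose was the subunit gene POLR3D, with 11.45 and 11.43 against 12.34 and 12.53 (1.00 ± 0.16, 1.99-fold, adjusted p = 0.0444).

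Most genes listed as the MYC network had negative differences. The list takes in relatives of MYC and of its partners, and also FBXW7, HUWE1, USP28, TRRAP and ZBTB17. Of 17 genes of the MYC network, 1 fell and 0 rose, against 0.974% and 1.17% of all genes. Of the 17 differences 15 were negative, and the median was -0.13. FBXW7, the ubiquitin ligase subunit that marks MYC protein for degradation, fell from 14.65 and 14.64 to 13.61 and 13.65 (-1.01 ± 0.15, adjusted p = 0.0414). Its arrays agreed within each group, and with 1 array left out the difference stayed between -1.03 and -0.99, but it was -0.57 when its probes were averaged. MAX, the partner of MYC, had -0.07 (adjusted p = 0.902), and the MYC antagonists MNT, MXI1 and MXD1 had -0.31, -0.13 and -0.05, none of which passed. These 4 were named for their role after their values were seen. MYCL, MLXIPL and MLXIP, also on the list, had -0.73, -0.72 and -0.40, and did not pass. MLXIPL lay under the median gene level. Without normalization 10 of the 17 were negative and 7 positive, and relative to all genes the median was -0.09. With probes averaged 12 were negative and 5 positive, and the median was -0.08. Without PSC medium array 1 the median was -0.29 with 13 negative.

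Of 21 MYC targets outside the nucleolus, 0 passed, 16 were positive and the median was 0.12, or up to 0.22 with 1 array left out, without mock array 1. IMPDH2, the entry enzyme of guanine nucleotide synthesis, had 14.32 and 14.33 in mock cells and 15.13 and 15.19 with PSC medium (0.84 ± 0.15, adjusted p = 0.0566). BCAT1, a branched-chain aminotransferase, had 0.65 ± 0.17 and lactate dehydrogenase LDHA 0.66 ± 0.18 (adjusted p = 0.101 and 0.111). The 12 further genes listed as polyamine enzymes include OAZ1, OAZ2, OAZ3, AZIN1 and AZIN2, which are not enzymes. Of the 12, 1 rose and 0 fell, against 1.17% and 0.974% of all genes. Their median was 0.06, but -0.04 without mock array 2 and -0.05 without PSC medium array 2. The gene that rose was SMOX, spermine oxidase, with 10.20 and 9.89 against 11.38 and 11.14 (1.21 ± 0.19, 2.31-fold, adjusted p = 0.0423).

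EXOSC2, POLR3D, FBXW7 and SMOX were each called under 4 of 12 alternative settings. None of the 4 was called with the replicate number as a block or with any 1 array left out. Each was also not called in some of the settings that kept every array and had no block.

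**Figure D4:**
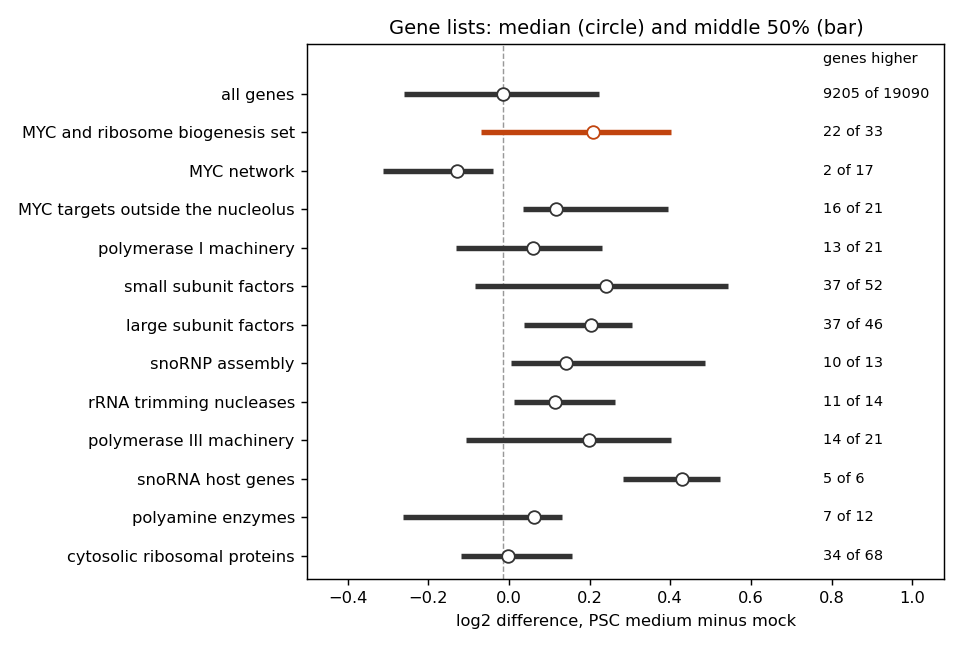
Median (circle) and middle 50% (bar) of the log2 differences, PSC medium minus mock, for the set, for other lists of the pathway and for all genes, with the number of genes higher at the right. The circles of both subunit factor lists lie near that of the set, that of the ribosomal proteins near 0 and that of the MYC network below the dashed median of all genes.

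Genes of the set with and without an E-box spanned similar differences, which were not tested against each other. The 14 genes with the motif had a median difference of 0.14 and 9 of them were positive. The 12 with a window but no motif had a median of 0.20 with 7 positive, NOP56 and NOC2L among them. PES1, with the motif at 14, had 0.54, and NAT10, with it at -15, had -0.19. Among all tested genes the median was 0.00 with the motif and -0.02 without it. In further small subunit factors it was 0.49 for 16 with the motif and 0.14 for 30 without. In further large subunit factors it was 0.29 for 10 and 0.15 for 31. It was also higher with the motif for snoRNP assembly (2 genes with it), polymerase III (6), MYC network (4) and MYC targets (10). In the MYC network both medians were negative, -0.13 with the motif and -0.16 without. It was lower with the motif for the polymerase I machinery (1 gene with it), trimming nucleases (2) and ribosomal proteins (4). Medians of so few genes do not show a pattern over the lists. These lists were not tested either. No window was available for MYC, RRP12, RRS1, BOP1, NOP58, NOLC1 or POLR3G, and they are not counted.

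**Figure D5:**
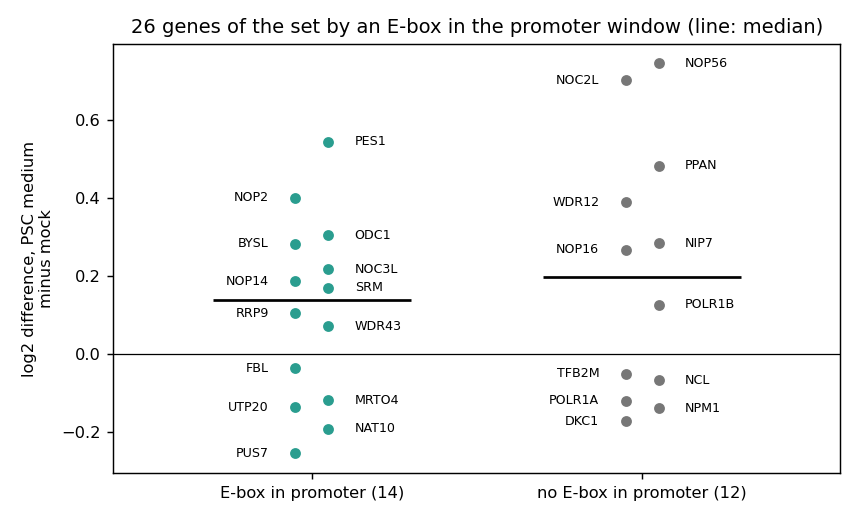
Log2 difference, PSC medium minus mock (vertical axis), of the 26 genes with a promoter window, split by an E-box in it. Points are genes and black lines medians, which lie at 0.14 with and 0.20 without the motif.

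A further trait of the set is that its genes often carry snoRNA genes within their span, from which the guide RNAs of the snoRNPs are cut. By the RefSeq annotation 8 of the 33 (24.2%) held at least 1, 21 in all, against 2.70% of all 19090 genes. NOP56 held 5, NOP58 4, NCL and WDR43 3 each, PPAN and DKC1 2 each, and UTP20 and ODC1 1 each. The median difference was 0.19 for these 8 and 0.21 for the other 25.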

How the data were processed

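Total RNA of QGP-1 cells was amplified, labelled with Cy5 and hybridised to 4 arrays of 1 colour, per the labels' protocols. The deposited values are probe intensities on a linear scale, from which a background had been subtracted, since values below 0 occur. The scanner, its software and any scaling by the authors are not given in the labels used here. Array medians differed by 0.325 on the log2 scale, so intensities were quantile normalized, set to at least 1 and put on the log2 scale. The platform annotation names 25893 of 28264 probes with 1 gene each and 2371 with none. Each of 19090 genes was read from its brightest probe, and probes were also fitted singly.

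The comparison of PSC medium with mock used limma (version 3.58.1, R 4.3.3), as a two-sided moderated test from eBayes after lmFit (2 residual degrees of freedom, median SE 0.178), with Benjamini-Hochberg adjustment over all genes and a threshold of 0.05. The procedure was tested on simulated data. Alternatives were no normalization, median centring, 50 added before log2, leaving out genes under the median level, averaging probes, an intensity trend, robust eBayes, the replicate number as a block, and leaving out each array. The genes of the set and all lists were chosen with earlier results of these data known. Array values are given for MYC, both polymerase I subunits and, in each other step, the 2 genes of smallest p, the lowest difference and every gene at an unadjusted p under 0.05, with a few added. From other lists, genes called or else up to 3 of smallest p are named. Promoter sequences are from RefSeq (GRCh38.p14).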

Additional observations from a re-analysis of the deposited data

How the results depend on the processing

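No gene of the set was called lower under any of the 12 alternatives, and calls of higher genes differed between settings. Higher calls in the set were 4 with 50 added before log2 (4.63% of all genes), 4 with genes under the median level left out (7.49%), 3 with an intensity trend (3.09%) and 4 with robust eBayes (5.10%), and 0 under the other alternatives. MYC, RRP12 and NOC2L were called in all 4 of these and NOP56 in 3. Leaving out dim genes removed BOP1, PES1 and MRTO4 from the fit. Over all genes, higher and lower calls were 35 and 78 without normalization, 29 and 62 with median centring, 884 and 1154 with 50 added, 743 and 836 without dim genes, 60 and 33 with probes averaged, 590 and 701 with an intensity trend, and 973 and 1267 with robust eBayes. With 1 array left out they ran from 0 to 1 in each direction, a design that leaves 1 residual degree of freedom and takes the lone array to vary like the other group. The replicate number as a block gave 59 higher and 25 lower calls over all genes and changed no call in the set. The labels give only a shared number, and the correlation of the replicate differences between the groups was 0.07, so the arrays were not treated as pairs. Median centring moved the median of all genes to -0.10, and the median of the set stood 0.24 above that of all genes with it and without normalization, against 0.22 as reported. With 1 array left out the median of the set ran from 0.11 to 0.22, and its genes with lower, separate groups from 4 to 10, where 37.7% to 43.6% of all genes were so, against 0 without normalization (21% of all genes). With probes averaged, 10 genes were higher at an unadjusted p under 0.05. Signs turned in 9 genes, none with a reported size above 0.14. Without normalization MRTO4 had 0.022, FBL 0.112, NCL 0.020 and TFB2M 0.026, and with median centring WDR43 had -0.011. With 1 array left out UTP20 ran from -0.41 to 0.14, MRTO4 from -0.44 to 0.21, FBL from -0.38 to 0.31, TFB2M from -0.17 to 0.067, WDR43 from -0.043 to 0.18, RRP9 from -0.031 to 0.24, POLR3G from -0.21 to 0.034, POLR1A from -0.25 to 0.0084 and NCL from -0.21 to 0.080. The cause of these changes was not tested. Dim genes and 2 arrays a group limit what can be told apart.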

Other observations

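Other lists bear on relatives of the set. Of 9 paralogs of its genes, 0 passed in limma, with 4 positive and 5 negative differences. MYCL, a relative of MYC, had -0.73 ± 0.16 (adjusted p = 0.0756), and POLR3GL, which takes the place of POLR3G in RNA polymerase III, had -0.57 ± 0.18 (adjusted p = 0.139). NPM3, a relative of NPM1, had 0.48 ± 0.24 (adjusted p = 0.294). Of 6 snoRNA host genes measured, 0 passed and 5 were positive, with a median of 0.43. SNHG8, SNHG7 and SNHG1 had 0.59, 0.53 and 0.50, and SNHG7 lay under the median gene level.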
